A study of Mus musculus with 9 samples.

Results

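The collagen chain genes examined here were the genes of the deposited mouse retina table whose symbol has the form Col, a type number, the letter a and a chain number, and 44 of the 22337 genes of the table met this rule. They comprised 11 fibrillar chains, 9 FACIT chains (fibril-associated collagens with interrupted triple helices), 6 type IV chains of basement membranes, 6 type VI chains of beaded filaments, the type VII chain of anchoring fibrils, 3 short chains of types VIII and X, 2 multiplexins (Col15a1 and Col18a1), 4 transmembrane chains, and Col26a1 and Col28a1, which fall in none of these classes. The rule used names alone and no measured value.

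RNA-seq of whole retina was carried out at postnatal day 28 (P28) in 3 groups of 3 libraries. WT mice were C57 BL/6J and received no injection. NS mice were rd10 mice, which carry a mutation of the rod phosphodiesterase gene Pde6b and lose their rods, injected with normal saline into the vitreous of both eyes at P14 and again at P21, and MSC-EVs mice were rd10 mice given 1 µl of extracellular vesicles from human umbilical cord mesenchymal stem cells on the same days. Both rd10 groups were littermates, while WT mice came from another supplier, so strain source, genotype and injection cannot be told apart in any comparison with WT. The sources differ on the route of injection: one label and a sentence of the study's methods name a vein, although into the eyes, while other labels and other passages of the study name the vitreous, which is taken here. The sources used here do not say whether a library is 1 animal or a pool, so p-values measure the spread between these libraries.

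Collagens are secreted or membrane-anchored proteins in which 3 alpha chains wind into a triple helix built of Gly-X-Y triplets, where X and Y are often proline and hydroxyproline. In the eye, collagen II fibrils carrying collagens IX, V and XI form the vitreous gel and are made largely by the non-pigmented ciliary epithelium and, during development, by the retina. Collagen IV chains form the network of the inner limiting membrane, of vessel walls and of Bruch's membrane, and collagen XVIII, whose cleaved end is endostatin, sits in the same membranes.

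The annotation sets the fibrillar chains apart by the length of their helical runs. In the longest annotated chain of each gene, the longest run of uninterrupted Gly-X-Y triplets held 216 to 344 triplets in the 11 fibrillar chains, against 32 to 113 in the FACIT chains and 39 to 66 in the type IV chains, whose ranges overlap. Coding exons of exactly 54 bases, the repeat unit of fibrillar collagen genes, made up 47.0% of 649 coding exons in fibrillar genes, 25.2% of 432 in FACIT genes and 4.1% of 296 in type IV genes.

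Col9a1 encodes the alpha 1 chain of collagen IX and lies on chromosome 1 of GRCm38 from 24177610 to 24252684, plus strand. It has a pair of annotated coding transcripts with starts 17593 bases apart in RefSeq, a long one of 3834 bases coding for 921 residues and a short one of 3059 bases coding for 680. The gene length implied by the deposited counts and FPKM was 3.06 kb for Col9a1 in each of the 9 libraries, the length of the short transcript. The annotation behind the counts is not given in the sources used here, and one that held the short transcript alone would give the same length. Which start the retina used was not tested. Among 427 genes with a single annotated transcript, the implied length divided by the annotated length had a median of 1.0, with a 5th and a 95th percentile of 1.0. The 250 bases before each start are shown because the implied length matched the transcript of the downstream start in every library, together with those before the start of Col11a1, the vitreous chain with the next lowest log2 fold change between the rd10 groups. Capitals mark a CCAAT box (CCAAT) or a GC box (GGGCGG) on either strand, read 5′ to 3′ on the strand of the gene from RefSeq on GRCm38.p6.
Col9a1 upstream start, chr1:24177360-24177609, plus strand: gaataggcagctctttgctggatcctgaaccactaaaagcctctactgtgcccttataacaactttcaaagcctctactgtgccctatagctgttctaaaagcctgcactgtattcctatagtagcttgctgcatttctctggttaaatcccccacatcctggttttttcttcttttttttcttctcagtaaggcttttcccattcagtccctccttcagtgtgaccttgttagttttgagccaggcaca
Col9a1 downstream start, chr1:24194953-24195202, plus strand: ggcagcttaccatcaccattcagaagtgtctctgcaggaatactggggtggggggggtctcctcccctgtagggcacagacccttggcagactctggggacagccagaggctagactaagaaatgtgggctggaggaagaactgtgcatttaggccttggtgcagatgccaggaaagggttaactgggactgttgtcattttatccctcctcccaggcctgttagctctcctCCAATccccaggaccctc
Col11a1, chr3:114030290-114030539, plus strand: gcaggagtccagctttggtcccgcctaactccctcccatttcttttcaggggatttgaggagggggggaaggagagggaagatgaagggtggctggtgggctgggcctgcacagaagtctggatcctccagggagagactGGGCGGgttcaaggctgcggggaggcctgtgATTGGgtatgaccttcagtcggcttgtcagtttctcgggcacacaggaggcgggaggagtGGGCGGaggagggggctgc

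Promoter sequences were available for 35 of the 44 genes, with 38 starts. Neither window of Col9a1 held a TATAAA or a GGGCGG, and the downstream one held a CCAAT beginning 18 bases before the start. The GC box occurred in 57.9% of the 38 collagen windows and in 32.7% of 32851 windows of all genes. The median GC content was 59.0% in the collagen windows and 52.4% in all windows, and its part in this difference was not tested. CCAAT occurred in 34.2% and 33.8%, and TATAAA in 13.2% and 12.4%. The AP-1 motif TGANTCA, searched on both strands like the others, was present in 1 collagen window, that of Col6a1, and in 6.75% of all windows. A SOX-type motif (ACAATG) was found in 1 collagen window and 10.7% of all, and an E-box (CACCTG) in 4 collagen windows and 17.2% of all. Such matches describe letters only.

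Levels between genes were compared as FPKM, which is scaled by length. Over the 9 libraries, Col9a1 had the highest mean level of the 44 genes at 26.7 FPKM, followed by the transmembrane chain Col23a1 at 23.6, Col4a1 at 16.85, Col4a2 at 10.02 and Col2a1 at 9.65. Summed FPKM over all 44 genes was 87.7 ± 2.26 (SD, n = 3) in WT, 209 ± 6.19 in NS and 168 ± 23.3 in MSC-EVs libraries. The groups did not overlap, since WT reached 90.0 at most, MSC-EVs libraries lay at 157.5, 194 and 151, and the lowest NS library stood at 205.4. FACIT chains supplied 27.5 to 28.1% of this sum in WT, 29.0 to 30.1% in NS and 20.2 to 21.6% in MSC-EVs libraries. Col9a1 alone held 70.0 to 71.2% of the FACIT sum in NS and 57.5 to 62.3% in MSC-EVs libraries, and without it the FACIT chains summed to 8.68 to 9.95, 18.1 to 18.5 and 12.8 to 16.2 FPKM in WT, NS and MSC-EVs libraries. Type IV chains supplied 20.3 to 20.9%, 18.7 to 21.3% and 25.9 to 28.8%, respectively. Their sum itself overlapped between the rd10 groups, at 38.5 to 46.0 FPKM in NS and 43.15 to 50.4 FPKM in MSC-EVs libraries. Their share thus also reflects the lower total in MSC-EVs libraries. The length implied by counts and FPKM for Col4a1 differed 1.29-fold between libraries, which enters these values.

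Total estimated counts ran from 19491721 to 28545647 in 8 libraries and reached 62532357 in MSC-EVs replicate 3. Pde6b stood at 2410 to 2610 CPM (counts scaled to library size, with TMM factors) in WT and at 450 to 712 CPM in the 6 rd10 libraries. The 4 Y-linked genes checked summed to 183 and 189 CPM in MSC-EVs replicates 1 and 2 and to at most 0.501 in the other 7 libraries, and the labels give no sex. MSC-EVs replicate 2 stood apart for collagens: it was the highest of its group in 35 of 42 collagen genes (83.3%), against 34.2% of all 14765 genes tested.

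In NS-treated against WT retinas, which differ in genotype and injection, collagens of most classes were higher. A gene was called when its adjusted p was under 0.05 and its fold change at least 2 (edgeR quasi-likelihood test over all genes). Of 42 collagen genes tested, 23 were called higher, where 9.16% of all 14644 genes were, and 4 were called lower, where 3.56% of all genes were. With no limit on the fold change, 29 were higher (31.2% of all genes) and 5 lower (30.1%). Libraries of both groups did not overlap in 35 of the 42, against 67.1% of all genes. The median log2 fold change was 1.04 over the collagen genes and 0.005 over all genes. Col6a5 and Col28a1, with at most 21 and 10 counts in any library, did not pass the filter in any comparison.

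Rod markers fell over the same libraries. All 7 genes of the rod list were lower in NS with an adjusted p under 0.05 (30.1% of all genes), 6 of them called (3.56% of all genes). Their sum went from 68400 to 73500 CPM in WT to 13600 to 19700 CPM in NS. In bulk retina, fewer cells of a type and less RNA per cell cannot be told apart, and the part of rod loss in the higher collagen CPM was not tested.

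Among fibrillar chains, 8 of 11 were called higher in NS, none lower, with a median log2 fold change of 1.45. Col2a1, the main chain of vitreous fibrils, stood at 30.1, 31.9 and 29.5 CPM in WT and at 61.9, 65.3 and 64.2 CPM in NS, with all NS libraries above all WT libraries (log2 fold change 1.06, SE 0.06, adjusted p 4.87e-08). Col11a1 was at 4.08, 4.16 and 4.11 CPM in WT and 9.06, 13.4 and 11.35 in NS (log2 fold change 1.44, adjusted p 7.84e-06). Col1a2, a chain of the collagen I of connective tissue, was also called (1.64, adjusted p 5.69e-06), as were Col3a1 (1.45), Col5a1 (1.5), Col5a2 (1.49), Col5a3 (1.04) and Col24a1 (1.82). Col1a1 was low, at 7 to 127 counts a library, and was not called (log2 fold change 1.82, SE 0.85, adjusted p 0.112), with NS replicate 2, at 6.23 CPM, above the other NS libraries at 1.45 and 1.05. Col1a1 FPKM divided by Col1a2 FPKM was between 0.0521 and 0.304 in all 9 libraries, although collagen I holds more alpha 1 than alpha 2 chains. Col11a2 (0.69) and Col27a1 (0.50) rose by less than 2-fold.

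All 3 collagen IX chains rose in NS. Col9a1 stood at 53.1, 48.7 and 50.4 CPM in WT and at 127.5, 130.5 and 126.9 in NS, a 2.52-fold difference with little spread within either group (log2 fold change 1.34, SE 0.06, adjusted p 3.43e-09). Col9a2 (1.01, adjusted p 3.82e-05) and Col9a3 (1.68, adjusted p 3.47e-07) were called as well. The 6 vitreous fibril chains Col2a1, Col9a1, Col9a2, Col9a3, Col11a1 and Col5a2 were all called higher, with a median log2 fold change of 1.39 and a summed level of 26.3 ± 0.917 FPKM in WT against 72.9 ± 0.773 in NS (SD, n = 3). Of the other FACIT chains, Col16a1 was called higher (1.94, adjusted p 0.00553), and Col12a1 rose by less than 2-fold (0.65, adjusted p 0.00303).

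Col19a1, a FACIT chain that neurons are known to express, went the other way. It was at 1.66, 2.19 and 2.25 CPM in WT and at 0.541, 0.686 and 0.641 CPM in NS (log2 fold change -1.71, SE 0.29, adjusted p 0.000247), from 14 to 49 counts in these libraries. Its gene lies tail to tail with Col9a1 on chromosome 1, 9205 bases away, so neighbouring genes changed in opposite directions. Col20a1 was lower by less than 2-fold (-0.63, adjusted p 0.041).

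**Figure D1:**
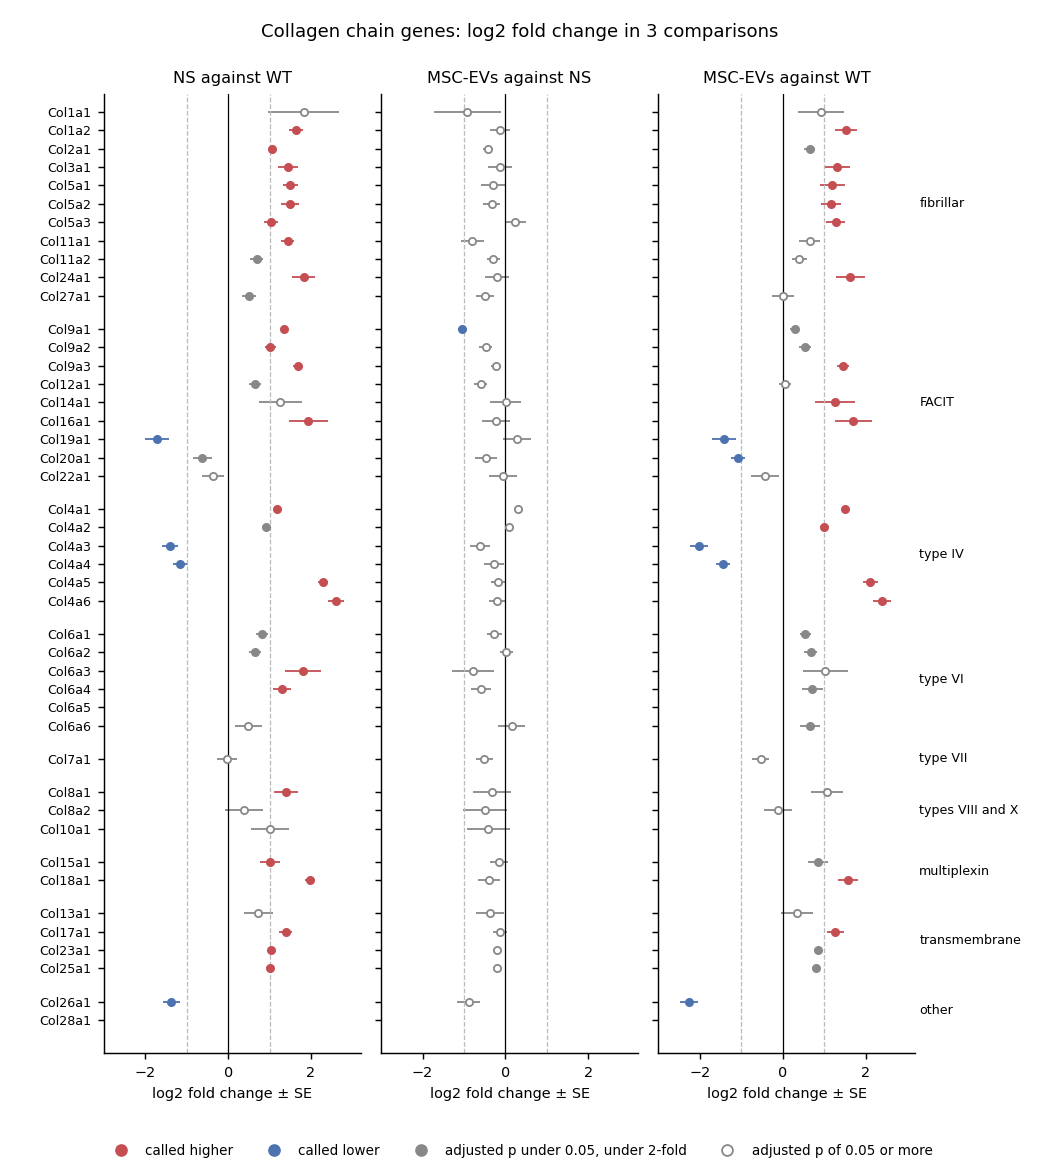
Log2 fold change with its standard error for each collagen gene tested, ordered by class, in NS against WT (left), MSC-EVs against NS (centre) and MSC-EVs against WT (right). Most points of the left panel lie right of the dashed line at 1, with Col19a1, Col4a3, Col4a4 and Col26a1 on the far left, and in the centre panel Col9a1 alone is called.

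Type IV chains split by pair. The 6 genes lie in 3 pairs that point away from each other: Col4a1 and Col4a2 on chromosome 8 with starts 21 bases apart, Col4a3 and Col4a4 on chromosome 1 with starts 72 bases apart, and Col4a5 and Col4a6 on chromosome X with starts 1309 bases apart. They assemble as helices of alpha 1 and alpha 2 chains in most basement membranes, of alpha 3, alpha 4 and alpha 5 chains in a few, and of alpha 5 and alpha 6 chains in others.

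Col4a5 and Col4a6 had the largest increases of all 42 collagen genes in NS. Col4a5 was at 5.56, 5.95 and 7.06 CPM in WT and 29.3, 34.5 and 27.5 CPM in NS (4.91-fold, log2 fold change 2.3, SE 0.12, adjusted p 1.69e-08). Col4a6 was at 1.71, 2.42 and 2.7 CPM in WT and 14.6, 15.9 and 10.85 CPM in NS (6.07-fold, log2 fold change 2.60, SE 0.20, adjusted p 4.19e-07). NS libraries lay above all WT libraries for both.

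Col4a3 and Col4a4 fell. Col4a3 went from 21.4, 19.2 and 28.03 CPM in WT to 9.94, 9.66 and 6.18 CPM in NS (log2 fold change -1.40, SE 0.19, adjusted p 0.000209), and Col4a4 from 16.02, 15.7 and 18.8 CPM to 10.04, 6.03 and 6.23 CPM (-1.16, SE 0.18, adjusted p 0.000322). Col4a1 rose (1.19, adjusted p 7.6e-08), and Col4a2 rose by just under 2-fold (0.92, adjusted p 1.97e-07). Members of each pair thus changed in 1 direction, upward for 2 pairs and downward for the pair whose products assemble with the alpha 5 chain.

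**Figure D2:**
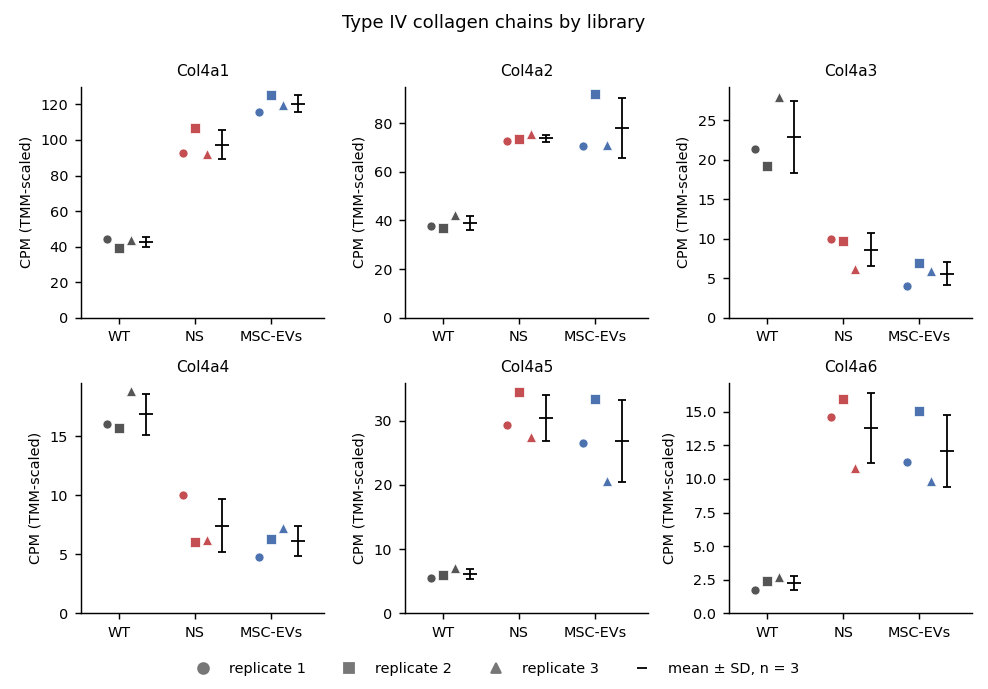
CPM of the 6 type IV chain genes in each of the 9 libraries (circle, square and triangle for replicates 1, 2 and 3) with the mean ± SD beside each group. Col4a3 and Col4a4 are the panels in which WT is highest, and Col4a1 is the panel in which all 3 MSC-EVs libraries, at 116.0 to 125.5 CPM, lie above all NS libraries.

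Of the other classes, both multiplexins were called higher, with Col18a1 at 16.8, 17.8 and 16.2 CPM in WT and 79.1, 62.65 and 58.3 CPM in NS (3.93-fold, adjusted p 2.13e-07) and Col15a1 at a log2 fold change of 1.02 (adjusted p 0.00309). Among transmembrane chains, Col23a1 (1.04, adjusted p 5.68e-08), Col25a1 (1.01, adjusted p 1.07e-06) and the hemidesmosome component Col17a1 (1.39, adjusted p 1.03e-05) were called. In type VI, Col6a3 (1.81, adjusted p 0.00296) and Col6a4 (1.3, adjusted p 0.000231) were called, while Col6a1 (0.81) and Col6a2 (0.65) rose by less than 2-fold. Col8a1, a chain of the hexagonal lattice of Descemet's membrane that vessels also make, was called (1.40, adjusted p 0.00657), although its NS libraries were scattered at 27.3, 12.8 and 20.1 CPM. The genes that did not pass the test, beside Col1a1, were Col14a1, Col22a1, Col6a6, Col7a1, Col8a2, Col10a1 and Col13a1. Col26a1 was lower, at 4.26, 4.88 and 5.26 CPM in WT and 1.55, 2.25 and 1.78 in NS (-1.38, SE 0.20, adjusted p 9.89e-05).

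Genes that make and handle collagen were uneven in NS, and the counts of called genes that follow stand beside 9.16% of all genes called higher. Of 18 genes for chain modification and folding, 3 were called higher, namely Fkbp10 (1.61), the collagen chaperone Serpinh1 (1.28) and P4ha3 (1.26). Of 12 processing and cross-linking genes, 6 were higher, with Pcolce, an enhancer of propeptide removal (2.75), the cross-linking enzyme Lox (2.31) and the propeptide protease Bmp1 (2.06) in the lead. Called higher were also 2 of 8 collagen receptors (Ddr2 at 1.53 and Ddr1 at 1.29), 6 of 14 basement membrane partners (among them Nid2 at 1.62 and Lama5 at 1.44), 5 of 6 small leucine-rich proteoglycans (Optc at 3.03, Fmod at 2.97, Ogn at 1.69) and 1 of 5 collagen-degrading proteases (Mmp14 at 1.71). No gene of these 6 lists was called lower, but 3 were lower by less than 2-fold, namely the propeptide protease Adamts3 (-0.70, edgeR adjusted p 1.54e-05), P4ha1 (-0.58, adjusted p 0.00202) and Colgalt1 (-0.34, adjusted p 0.00141), which were named after their values were seen.

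Markers of other eye tissues were examined over the same libraries. Against WT, 31.2% of all genes were higher in NS at an adjusted p under 0.05, and 9.16% were called higher. In NS, 5 of 6 tested ciliary body and iris markers had an adjusted p under 0.05, all higher, and their sum was 25.0 to 26.7 CPM in WT, 53.4 to 99.3 CPM in NS and 30.4 to 62.8 CPM in MSC-EVs libraries. Optc, also on the proteoglycan list, is part of this sum, at 3.67 to 4.66 CPM in WT, 20.8 to 54.6 CPM in NS and 4.4 to 33.0 CPM in MSC-EVs libraries. Fibroblast markers (5 of 6 higher) summed to 32.2 to 33.4, 94.6 to 121 and 66.5 to 102 CPM, and pigment epithelium markers (2 of 8 higher, a smaller share than that of all genes) to 40.1 to 71.7, 55.4 to 218 and 58.3 to 178 CPM. Dcn, Lum and Ogn of the fibroblast list are also on the proteoglycan list, and Pdgfra is also on the astrocyte list, so these lists are not separate results. Vessel markers rose by less, with 6 of 8 endothelial and 5 of 8 mural genes higher but none by 2-fold, whereas 4 of 5 astrocyte and all 7 microglia markers were called. Müller glia markers were higher for 6 of 7 genes, 2 of them called. Of 3 tested genes on the cartilage and sclera list, 2 were above 0 and Sox9 alone was called higher. The sum over that list was 17.2 to 17.6 CPM in WT, 52.6 to 59.0 CPM in NS and 31.5 to 78.7 CPM in MSC-EVs libraries. The median log2 fold change of that list was 0.109, against 0.005 over all genes, and 1 gene cannot stand for these tissues. No lens marker of 7 passed the test, and no corneal marker passed the filter. No marker gene was at 0 in all libraries, and the part of any of these tissues in the collagen changes was not tested.

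**Figure D3:**
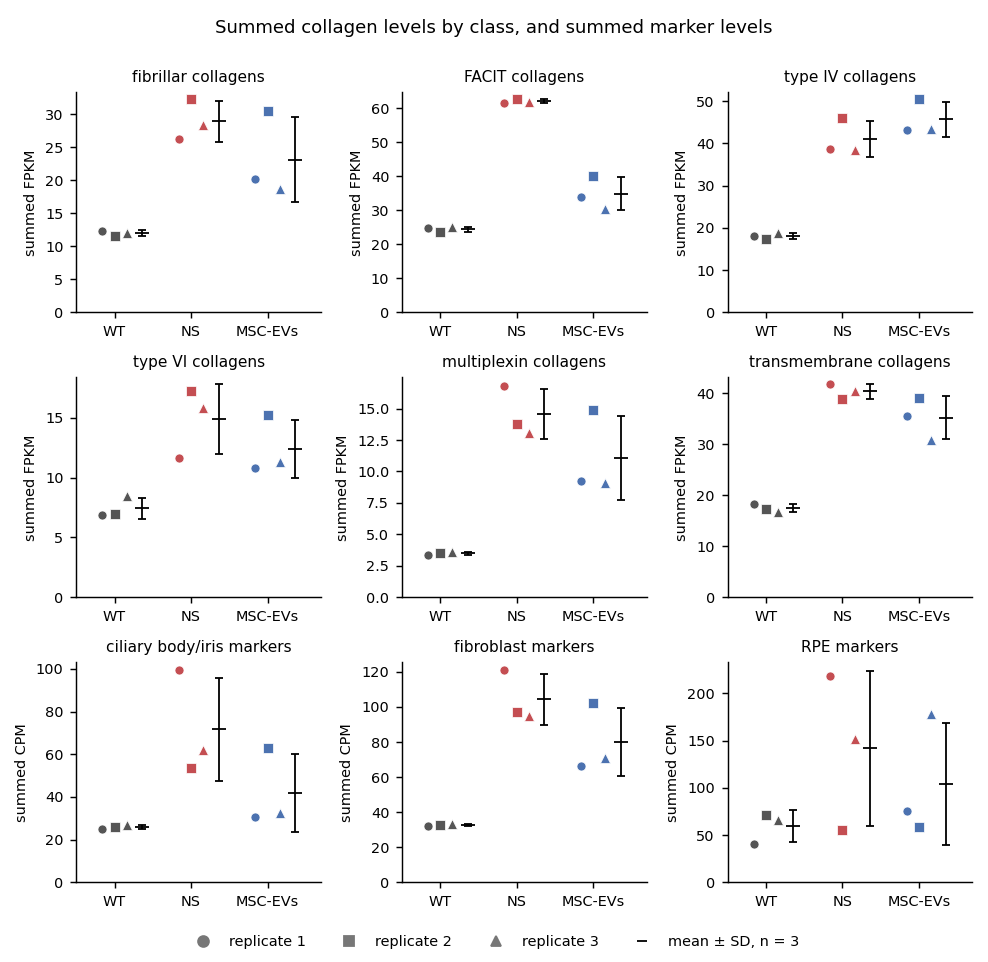
Summed FPKM of 6 collagen classes in each library (upper panels) and summed CPM of markers of ciliary body and iris, fibroblasts and pigment epithelium (lower panels), with the mean ± SD beside each group. FACIT collagens average 62.1 FPKM in NS and 34.9 FPKM in MSC-EVs libraries, of which Col9a1 is 43.8 and 20.9 FPKM, and type IV collagens 41.1 and 45.7 FPKM, and MSC-EVs replicate 2 (square) is the highest of its group in every collagen panel and in the ciliary body and fibroblast panels. Optc holds 33.0 of the 62.8 CPM of that library in the ciliary body panel.

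Whether vesicles changed collagen expression in the degenerating retina was asked by comparing MSC-EVs-treated with NS-treated rd10 retinas. Col9a1 was the single collagen gene called, and it was lower. It stood at 127.5, 130.5 and 126.9 CPM in NS and at 62.5, 71.0 and 52.2 CPM in MSC-EVs libraries, 2.07-fold lower on average, and no library of one group reached the other (log2 fold change -1.05, SE 0.10, edgeR adjusted p 0.00911). In FPKM it was 43.8 ± 0.743 in NS and 20.9 ± 3.26 in MSC-EVs libraries (SD, n = 3).

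No collagen gene was called higher, where 0.0542% of all 14765 genes were, and 1 was called lower, where 0.00677% of all genes were, so that Col9a1 was the only gene of the table called lower between the rd10 groups. With no limit on the fold change the collagen counts were again 0 and 1 (0.914% and 0.251% of all genes), and at an unadjusted p under 0.05 there were 11 of 42 collagen genes (26.2%, against 20.2% of all genes). The DESeq2 Wald test found 1 higher (Col4a1) and 4 lower (Col2a1, Col11a1, Col9a1 and Col12a1) at an adjusted p under 0.05. The edgeR test with a replicate block found 1 higher (Col4a1) and 3 lower (Col9a1, Col11a1 and Col12a1), and with all 9 libraries in 1 fit 1 higher (Col4a1) and 4 lower (Col2a1, Col9a1, Col12a1 and Col26a1).

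The call of Col9a1 was made or lost by single libraries. It was lost without NS replicate 3 (log2 fold change -1.06, adjusted p 0.0864), without MSC-EVs replicate 1 (-1.05, adjusted p 0.11) and without MSC-EVs replicate 3, where the change was -0.94 with an adjusted p of 0.000975 and so fell short of 2-fold. Over all 16 alternatives its log2 fold change lay between -1.28 and -0.94 and its adjusted p between 5.5e-17 and 0.11. Without MSC-EVs replicate 2, 2 collagen genes were called lower, Col9a1 (-1.16) and Col11a1, and 6 had an adjusted p under 0.05, with Col2a1, Col5a1, Col12a1 and Col18a1 added.

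The other vitreous chains were below NS without being called. Col2a1 was at 42.8, 58.8 and 41.7 CPM in MSC-EVs libraries, all under the NS libraries (log2 fold change -0.42, SE 0.12, adjusted p 0.121). Col11a1 was at 4.47, 9.31 and 5.64 CPM, and its replicate 2 lay within the NS range (-0.80, SE 0.27, adjusted p 0.164). The log2 fold changes of the others were -0.48 for Col9a2 (adjusted p 0.129), -0.24 for Col9a3 (adjusted p 0.316) and -0.33 for Col5a2 (adjusted p 0.408). The list's median log2 fold change was -0.45, against -0.29 over all collagen genes and -0.002 over all genes. Over the 42 collagen genes, 35 had a log2 fold change below 0 (83.3%, against 50.4% of all genes), and 7 had libraries that did not overlap between groups (26.3% of all genes), 6 of them lower and 1, Col4a1, higher.

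**Figure D4:**
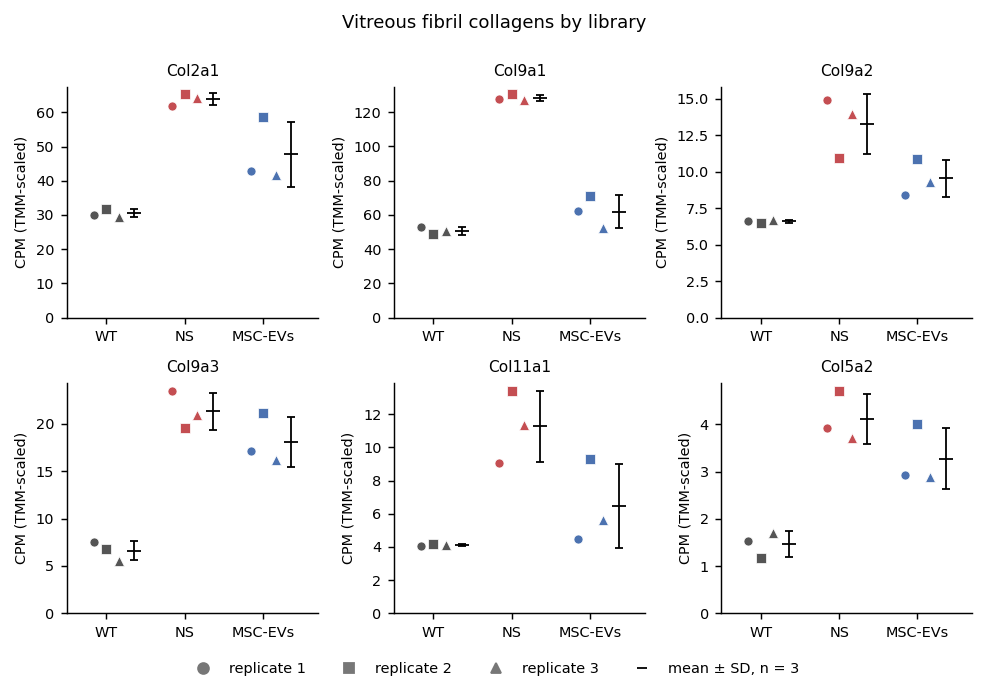
CPM of the 6 vitreous fibril collagen genes in each library (circle, square and triangle for replicates 1, 2 and 3) with the mean ± SD beside each group. For Col9a1 the MSC-EVs libraries, at 52.2 to 71.0 CPM, lie near WT and far from NS, while for Col9a3 they lie at 16.2 to 21.1 CPM, near NS.

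Chain ratios within collagen IX differed between groups. Col9a1 FPKM divided by Col9a3 FPKM was 6.56, 6.65 and 8.49 in WT, 5.07, 6.20 and 5.66 in NS and 3.42, 3.13 and 3.01 in MSC-EVs libraries, with no overlap between groups. Divided by Col9a2 FPKM it was 7.62, 7.24 and 7.23 in WT, 8.18 to 11.4 in NS and 5.36 to 7.10 in MSC-EVs libraries, also without overlap. These ratios are descriptions and were not tested.

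Among type IV chains, Col4a1 was higher in MSC-EVs than in NS libraries without being called. It stood at 92.7, 106.7 and 92.3 CPM in NS and at 116.0, 125.5 and 119.6 CPM in MSC-EVs libraries, which were all higher (log2 fold change 0.31, SE 0.07, adjusted p 0.0725). Over the 16 alternatives its adjusted p lay between 0.011 and 0.271, and it was under 0.05 in 3 of them, the DESeq2 Wald test (0.011), the fit of all 9 libraries (0.0276) and the replicate block (0.0464). Its partner Col4a2 was at 72.8, 73.5 and 75.5 CPM in NS and 70.5, 92.2 and 71.3 CPM in MSC-EVs libraries, where only replicate 2 was above NS. Col4a1 FPKM divided by Col4a2 FPKM was 1.07 to 1.42 in WT, 1.40 to 1.86 in NS and 1.71 to 2.22 in MSC-EVs libraries. The length implied for Col4a1 differed 1.29-fold between libraries, which enters this ratio. In estimated counts the ratio was 1.04 to 1.18 in WT, 1.22 to 1.45 in NS and 1.36 to 1.68 in MSC-EVs libraries, so that NS and WT did not overlap. Col4a5 was at 26.5, 33.4 and 20.7 CPM, and Col4a6 at 11.3, 15.0 and 9.83 CPM, both overlapping NS.

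Marker values that moved with these collagens were uneven across the MSC-EVs libraries. Opticin (Optc), a vitreous proteoglycan of the ciliary body and itself a gene of the ciliary body and iris list, was at 4.53, 3.67 and 4.66 CPM in WT, 54.6, 20.8 and 28.9 CPM in NS and 5.10, 33.0 and 4.40 CPM in MSC-EVs libraries. MSC-EVs replicate 2 was thus high in Optc and in most collagens, while replicates 1 and 3 were near WT for Optc. Replicate 2 was also highest of its group for the lens sum (9.58, 93.4 and 33.7 CPM) and the cartilage and sclera sum (39.3, 78.7 and 31.5 CPM). The same held for the ciliary body, fibroblast, astrocyte and microglia sums. It was lowest for the Müller glia, endothelial, mural and pigment epithelium sums and in between for the rod and corneal sums. Col9a1 lay between 126.9 and 130.5 CPM in the 3 NS libraries, over which Optc differed 2.62-fold, and within the MSC-EVs group both were highest in replicate 2, Col9a1 at 71.0 CPM. The log2 fold changes of ciliary body and iris markers were below 0 for 6 of 6, with a median of -0.54 and none called. Those of Müller glia markers were below 0 for all 7, with sums of 6720 to 8160 CPM in NS and 6010 to 6190 CPM in MSC-EVs libraries. Of these 7 genes, 1 was lower at an edgeR adjusted p under 0.05 (0.251% of all genes), by less than 2-fold. Libraries did not overlap between the rd10 groups for 4 of the 7 (26.3% of all genes). Mural markers were below 0 for all 8, with sums of 209 to 240 CPM in NS and 176 to 200 CPM in MSC-EVs libraries, pigment epithelium markers for all 8 (median -0.41), and fibroblast markers for 5 of 6, with a median of -0.79, the lowest of the marker lists. The other lists were split, with 5 of 7 rod, 4 of 7 microglia, 4 of 8 endothelial, 4 of 6 lens and 2 of 5 astrocyte genes above 0. Of the corneal list 1 of 1 tested gene was above 0, and of the cartilage and sclera list 0 of 2. Astrocyte sums were 321 to 505 CPM in NS and 486 to 620 CPM in MSC-EVs libraries. No gene of any marker list was called, where 0.0542% of all genes were called higher and 0.00677% lower. The part of these cells and tissues in the lower Col9a1 was not tested. Pigment epithelium markers summed to 218, 55.4 and 152 CPM in NS and to 75.3, 58.3 and 178 CPM in MSC-EVs libraries, and Col8a1, at 27.3, 12.8 and 20.1 CPM and at 12.9, 9.31 and 24.8 CPM, had the same order of libraries within each of these groups.

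Of the 63 genes of the 6 pathway lists that were tested, 1 was called between the rd10 groups. Of all genes, 0.0542% were called higher and 0.00677% lower. The cross-linking enzyme Loxl4 was higher in MSC-EVs libraries, at 21.4, 16.5 and 27.6 CPM against 9.50, 10.7 and 8.01 CPM in NS (log2 fold change 1.23, SE 0.20, adjusted p 0.038). Fibromodulin (Fmod), which binds collagen fibrils, was lower by less than 2-fold, at 36.6, 40.2 and 31.2 CPM against 61.4, 49.8 and 60.1 CPM (-0.67, SE 0.11, adjusted p 0.0343). Chain modification, receptor, basement membrane and protease lists held no called gene.

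With the Y-linked level of each library as a covariate, the log2 fold change of Col9a1 between rd10 groups was -1.28. The covariate is high in MSC-EVs replicates 1 and 2 and in no other library, so it cannot be told apart from the group in full. The group difference in such a fit rests mainly on MSC-EVs replicate 3, and no p-value is given for it.

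In MSC-EVs-treated rd10 against WT retinas, most collagens were higher. Of 41 genes tested, 15 were called higher (9% of all 14623 genes) and 5 lower (3.2%), and with no fold limit 25 were higher (28.3%) and 5 lower (27.2%). Libraries did not overlap in 33 of the 41 (65.2% of all genes). The median log2 fold change was 0.81. With the Y-linked covariate, 9 were called higher and 5 lower. The group difference in that fit rests mainly on MSC-EVs replicate 3. The comparison of MSC-EVs with WT shares its libraries with the other comparisons, so its values are given beside theirs.

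Col9a1 was close to WT, at 62.5, 71.0 and 52.2 CPM against 53.1, 48.7 and 50.4 CPM, and the groups overlapped (log2 fold change 0.29, SE 0.11, adjusted p 0.0429). This adjusted p exceeded 0.05 in 5 of the 6 fits that left out a library. With the Y-linked covariate, where the group difference rests mainly on MSC-EVs replicate 3, the log2 fold change was 0.048. Col2a1 (0.65, adjusted p 0.00331) and Col9a2 (0.54, adjusted p 0.00709) were higher by less than 2-fold, and Col11a1 was not past the threshold (0.65, adjusted p 0.0519). Col9a3 was still called (1.45, adjusted p 3.47e-05).

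Called chains of connective tissue were Col1a2 at 1.52 (adjusted p 0.00182), Col3a1 at 1.31, Col5a1 at 1.20, Col5a2 at 1.16, Col5a3 at 1.28, Col24a1 at 1.63, Col16a1 at 1.71 and Col14a1 at 1.27. Col4a5 (2.12, adjusted p 4.44e-05), Col4a6 (2.41, adjusted p 1.78e-05), Col4a1 (1.51, adjusted p 2.67e-07) and Col4a2 (1.01, adjusted p 0.000118) were higher. Col18a1 was called (1.58, adjusted p 0.00261), with replicate 2 at 70.7 CPM and replicates 1 and 3 at 40.4 and 40.6 CPM. Col17a1 was called as well (1.27). The lower genes were Col4a3, at 3.97, 6.92 and 5.88 CPM (-2.02, SE 0.21, adjusted p 0.000137), Col4a4 (-1.44), Col19a1 (-1.43), Col20a1 (-1.08) and Col26a1, at 1.13, 0.854 and 1.01 CPM (-2.25, SE 0.22, adjusted p 2.34e-05). Col26a1 was also below all NS libraries, without a call between the rd10 groups (-0.88, SE 0.28, adjusted p 0.124).

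Some values carry limits of counting. Col9a3 overlaps Tcfl5, Col18a1 overlaps Slc19a1, Col10a1 overlaps Nt5dc1 and the starts of Col4a1 and Col4a2 overlap, all on opposite strands, and whether strand was used in counting is not given in the sources used here. At most 3.54% of the 50-base stretches of any collagen gene (Col6a6) occurred in another annotated gene. The length implied for Col24a1 ranged from 0.811 to 7.22 kb between libraries, and that for Col22a1, Col3a1 and Col6a4 differed 2.98-, 2.59- and 2.04-fold, so no level of theirs is given in FPKM. They are part of the sums and of the limma alternative, and these 4 genes held at most 2.43% of the collagen FPKM of any library, and Col24a1 at most 7.83% of the fibrillar FPKM.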

How the data were processed

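The authors deposited 1 table of RSEM-type expected counts and FPKM for 22337 genes in 9 libraries. Retinal RNA was extracted with Trizol and enriched for mRNA with oligo(dT) beads, and the submitters' processing notes name fastp, Bowtie2, HISAT2, StringTie 1.3.1 and RSEM. The genome build and annotation are not given in the sources used here. Gene identifiers were matched to GENCODE M21 on GRCm38, where 22232 were found.

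Expected counts, of which 9.2 to 11.7% per library were not whole, were rounded. Genes passing filterByExpr were tested with edgeR 4.0.16 (TMM, quasi-likelihood test, R 4.3.3) on the 6 libraries of each comparison, with Benjamini-Hochberg adjustment over all genes tested. A gene was called at an adjusted p under 0.05 where its level also differed at least 2-fold (1 on the log2 scale). CPM were TMM-scaled over all 9 libraries, and deposited FPKM served for levels between genes, class sums and chain ratios. Precision is limited by 3 libraries a group. On simulated data with the same depths, the test for NS against WT called all 100 genes changed 4-fold and 53 of 100 changed 2-fold, the limit of the call itself, among 14660 tested. The simulation gave every gene the same spread and changed no gene of few counts. The common coefficient of variation between libraries was 7.97% for NS against WT and 12.5% for MSC-EVs against NS. The simulation thus does not cover low collagen genes or the comparison of the rd10 groups. Alternatives were DESeq2 1.42.0, limma 3.58.1 on log2 FPKM, other scalings, filters, a replicate block, a Y-linked covariate and each library left out.

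Named genes were every called collagen gene, chains of types I, II, III, IV, VI, IX and XI, the chain of highest mean FPKM in each class, the called genes between rd10 groups in the pathway lists and at most 3 per list for NS against WT, of which 1 is not reported here. The members and lists were chosen with earlier results of these data known.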

Additional observations from a re-analysis of the deposited data

How the results depend on the processing

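NS against WT gave 20 to 24 collagen genes higher and 4 lower when 1 library was left out, and 10 higher and 0 lower with limma on log2(FPKM + 1), a scale that understates changes of low genes. MSC-EVs against NS gave 0 higher, and 0 to 2 lower when 1 library was left out (without NS replicate 3, MSC-EVs replicate 1 or MSC-EVs replicate 3, 0; without MSC-EVs replicate 2, 2), with 1 in the main comparison and in every other alternative. MSC-EVs against WT gave 12 to 16 higher and 4 to 5 lower without 1 library, 7 higher and 1 lower with limma on log2(FPKM + 1), 3 lower with log2(FPKM + 0.1), 9 higher with the Y-linked covariate and 25 higher without a fold limit. In fits with the covariate the group difference rests mainly on MSC-EVs replicate 3. The cause of the lower count with it was not tested. Same-numbered libraries deviated with correlations of 0.0903, 0.178 and 0.284 between NS and MSC-EVs, where every library correlated best with its own number. In the comparisons with WT these correlations were -0.0726 to 0.0686. The sources used here do not say whether the numbers mark litters, and a pairing of the rd10 libraries cannot be told from these values. The main fits took no pairs, and fits with a replicate block are given beside them. With a replicate block, 24 genes were higher and 4 lower for NS against WT, 0 and 1 for MSC-EVs against NS (1 and 3 with no fold limit, against 0 and 1 without the block), and 13 and 5 for MSC-EVs against WT. No collagen gene with an adjusted p under 0.05 changed sign in any alternative run; 2 of 42, 17 of 42 and 3 of 41 genes did in the 3 comparisons, all at an adjusted p of 0.05 or more. Summed FPKM in NS was 2.38 times that in WT, and 2.33 times after rescaling to TPM. Counts of Col1a1, Col19a1 and Col26a1 are low, which limits their precision.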
